A study of Homo sapiens with 6 samples.

Results

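The rows named for cytosolic ribosomal proteins were followed in HEK293T cells, a human embryonic kidney line, and in lines of it labelled as knockouts of THUMPD2, an RNA methyltransferase. Members were the rows of the deposited table whose symbol has the form of a ribosomal protein of the cytosol, without pseudogenes, ribosomal S6 kinases or the Y-linked row, and 2 rows that lie over such genes on the other strand, SH3D19 over RPS3A and DIPK1A over RPL5. They numbered 85 of 59087 rows: 32 of the small subunit, 51 of the large subunit and the 2 rows over them. The groups were the THUMPD2 knockout lines labelled KO#1 and KO#2 (KO1 and KO2 here) and wild-type HEK293T cells (WT), with 2 RNA libraries each and no treatment named. Whether a line is 1 clone, and whether its 2 libraries are separate cultures, is not in the labels, so p-values measure the spread between these libraries only, which may be technical.

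Libraries held 7414339 to 8391143 counted reads. The THUMPD2 row held 3 and 0 reads in KO1, 0 and 1 in KO2 and 1 and 2 in WT, too few to be tested, so it checks neither the labels nor the knockouts. Of 6 genes used as markers of the HEK293T lineage VIM, NEFM, KRT8 and KRT18 were counted in every library, PAX2 had at most 5 reads and LHX1 had 0. Their summed count was 2938 and 3172 in KO1, 5736 and 6052 in KO2 and 3868 and 4128 in WT. The 8 genes of mature kidney cells held 8 to 26 reads per library in sum. The part of these markers in the results was not tested.

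Each ribosome is built from a small subunit, which decodes the mRNA, and a large subunit, which joins the amino acids. Most core ribosomal proteins are present in a single copy per ribosome, and cells make them in matched amounts. Their mRNAs are among the most abundant of a growing cell and begin with a run of pyrimidines, the terminal oligopyrimidine motif, through which mTOR signalling and the protein LARP1 set their translation. Excess free RPL5 and RPL11 bind MDM2 and so stabilise p53, and inherited loss of single ribosomal protein genes causes Diamond-Blackfan anaemia.

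The levels of these rows were low for such abundant mRNAs. The 83 ribosomal protein rows together held 0.254% and 0.253% of all counts in KO1, 0.271% and 0.262% in KO2 and 0.205% and 0.213% in WT, so both knockout lines lay above WT in every library. SH3D19 alone held 1.40% and 1.47% in KO1, 0.850% and 0.848% in KO2 and 1.30% and 1.27% in WT. The labels describe a directional library kit whose reads come from the first cDNA strand, and the strand setting of the counting is not given in the sources used here. A change below is therefore that of the row of that name, not of the gene.

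For 3 ribosomal protein genes, an exon that lies under a row of the other strand is shown in the sense of the mRNA. Bases under that row are in capitals (GRCh38, GENCODE v29). Counts are per row, so which exon holds the reads is not known. Other rows, among them those over RPL10, RPL30, RPL9 and RPS25, held more reads than AC010761.1 over RPL23A and are not shown. The exons are exon 4 of 6 of RPS3A (chr4:151102871-151103079, plus strand), exon 3 of 4 of RPS23 (chr5:82276398-82276518, minus strand) and exon 3 of 5 of RPL23A (chr17:28722723-28722899, plus strand). All 3 are coding exons.
RPS3A under SH3D19: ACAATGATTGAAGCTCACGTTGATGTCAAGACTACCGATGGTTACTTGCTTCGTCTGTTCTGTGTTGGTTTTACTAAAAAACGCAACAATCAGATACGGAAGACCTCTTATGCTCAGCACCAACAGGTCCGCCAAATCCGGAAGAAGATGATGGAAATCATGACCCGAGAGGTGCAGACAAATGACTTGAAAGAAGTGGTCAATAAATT
RPS23 under ATG10: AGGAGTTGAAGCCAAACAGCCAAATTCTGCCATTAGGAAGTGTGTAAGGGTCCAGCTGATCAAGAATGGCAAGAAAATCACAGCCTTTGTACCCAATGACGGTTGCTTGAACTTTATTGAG
RPL23A under AC010761.1: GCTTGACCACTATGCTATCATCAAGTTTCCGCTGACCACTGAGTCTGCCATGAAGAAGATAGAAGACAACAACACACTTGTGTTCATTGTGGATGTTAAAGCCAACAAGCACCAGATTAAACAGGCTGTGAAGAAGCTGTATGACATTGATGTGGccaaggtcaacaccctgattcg

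The starts of the ribosomal protein genes share a feature that their names did not select. In the RefSeq promoter table (GRCh38.p14), 66 of the 83 ribosomal protein rows had a start. Of these, 47 (71.2%) had a listed start whose first 5 transcribed bases were all C or T. A gene was counted if any of its listed starts qualified, so genes with more starts could qualify more easily. The same held for 1774 of 27305 genes of the table (6.5%). Windows of 40 bases before and 20 after the start are shown for 7 rows described below, the C and T run over the start in capitals. Only starts with such a run were taken, so every window holds one by choice.
RPS3A (chr4:151099588-151099647, plus strand): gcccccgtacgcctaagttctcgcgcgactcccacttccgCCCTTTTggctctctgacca
RPS19 (chr19:41860215-41860274, plus strand): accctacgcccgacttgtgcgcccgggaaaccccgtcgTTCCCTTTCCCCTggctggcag
RPLP1 (chr15:69452778-69452837, plus strand): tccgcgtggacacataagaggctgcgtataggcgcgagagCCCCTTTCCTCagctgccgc
RPLP2 (chr11:809927-809986, plus strand): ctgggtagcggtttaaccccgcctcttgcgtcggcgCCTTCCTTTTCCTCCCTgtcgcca
RPL10 (chrX:154398337-154398396, plus strand): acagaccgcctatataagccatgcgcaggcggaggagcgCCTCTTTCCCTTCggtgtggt
RPL13 (chr16:89560642-89560701, plus strand): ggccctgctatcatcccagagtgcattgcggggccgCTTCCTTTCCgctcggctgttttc
RPL22 (chr1:6199576-6199635, minus strand): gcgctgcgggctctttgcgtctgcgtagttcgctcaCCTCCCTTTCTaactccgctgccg
The runs are 7 bases long at RPS3A and 17 at RPLP2, and besides rows that rose the set holds RPL22, which fell, and RPS3A, which did not pass the test.

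Rows were counted as changed at a Benjamini-Hochberg adjusted p under 0.05 in edgeR's quasi-likelihood test over all 14184 rows that passed the filter on low counts. Of the 85 members 78 passed that filter. In KO1 against WT, 26 of them were higher and 2 lower, where 10.4% of all tested rows were higher and 13.3% lower (23.6% in either direction). In KO2 against WT, 13 were higher and 5 lower, where 13.6% of all tested rows were higher and 15.4% lower (29.0% in either direction). The share of members called higher in KO2 was thus near that of all rows. In the mean of both lines against WT, 21 were higher and 5 lower, where 12.3% and 15.9% of all tested rows were called (28.3% in either direction).

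Changes of the members were small. The median log2 fold change of the 78 was 0.31 in KO1 and 0.21 in KO2, beside 0.01 and 0.02 over all tested rows. The difference of these medians was 0.30 in KO1 and 0.19 in KO2. Another scaling shifts the changes of all rows by nearly the same amount, so it cannot check this difference. The counts of calls did move between alternatives. Members called higher in KO1 numbered 17 without KO1 replicate 2, 15 without WT replicate 2 and 12 by DESeq2; those called higher in KO2 numbered 7 without KO2 replicate 1 and 7 by DESeq2. Over all rows in KO1, 1469 were higher and 1881 lower, but 1941 higher and 1549 lower with upper-quartile factors, where 33 members were higher and 2 lower. Of the 28 members called in KO1 and the 18 called in KO2, 10 and 8 kept their call in every alternative that could be fitted for the row, and these carry the account below.

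**Figure D1:**
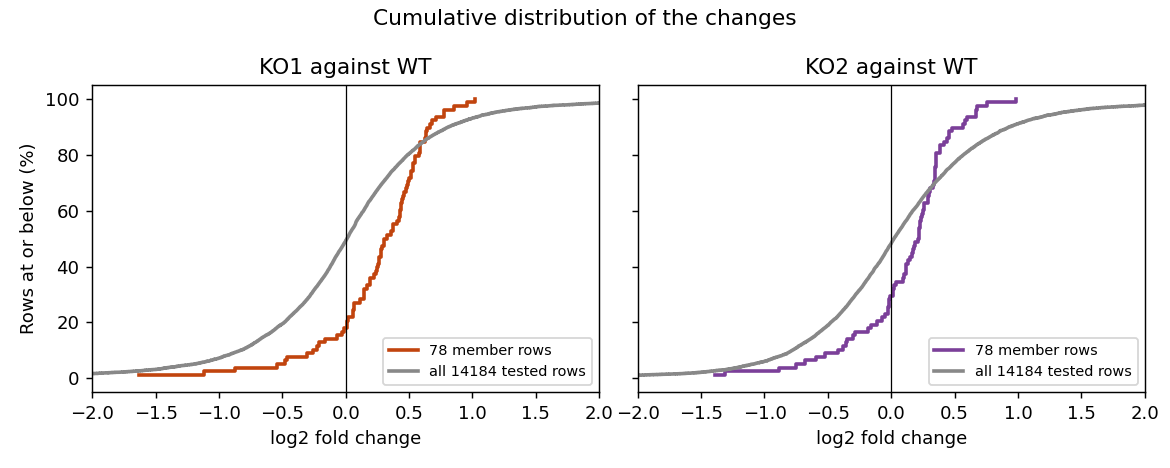
Cumulative distributions of the log2 fold changes of KO1 against WT (left) and KO2 against WT (right); the vertical axis is the percentage of rows at or below each change, the coloured line stands for the 78 tested member rows and the grey line for all 14184 tested rows. The member lines reach the middle at 0.31 and 0.21, to the right of the grey lines, and cross them further right, with no member above 1.02.

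The most counted row of the set was SH3D19, named for an adaptor protein with SH3 domains, whose exons share 262 bases with RPS3A and with no other gene on the opposite strand. RPS3A is a small subunit protein at the mRNA exit side. The SH3D19 row held 105743 and 108623 reads in KO1, 67367 and 71170 in KO2 and 99028 and 103017 in WT. Both KO2 libraries lay below all others. After TMM scaling the SH3D19 row averaged 14742 ± 894 counts per 1000000 of scaled library size (CPM) in KO1, 8201 ± 18.6 in KO2 and 13137 ± 310 in WT (SD, n = 2 each). It was lower in KO2 than in WT (log2 fold change −0.68 ± 0.04 SE, adjusted p = 4.36e-16). In KO1 it was higher by 0.17 ± 0.04 (adjusted p = 0.00164), a call that ended without WT replicate 2 (0.14, adjusted p = 0.0613). KO1 and KO2 differed by 0.85 ± 0.04 (adjusted p = 4.01e-18).

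The RPS3A row itself held 126 and 136 reads in KO1, 134 and 88 in KO2 and 131 and 119 in WT, and the groups overlapped. Its log2 fold change was 0.15 ± 0.20 in KO1 (adjusted p = 0.654) and −0.30 ± 0.20 in KO2 (adjusted p = 0.282), and it passed only without KO2 replicate 1 (−0.67, adjusted p = 0.0366). The count of SH3D19 was 839 and 799 times that of RPS3A in KO1, 503 and 809 times in KO2 and 756 and 866 times in WT. The KO2 ratios differed from each other more than those of the other groups, through the 134 and 88 reads of the RPS3A row.

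DIPK1A, named for a kinase-like protein of the endoplasmic reticulum, shares 273 exonic bases with RPL5, all within a non-coding transcript of the RPL5 gene and none in its coding sequence or untranslated regions. RPL5 binds the 5S ribosomal RNA together with RPL11 on the large subunit. The DIPK1A row held 607 and 442 reads in KO1, 441 and 466 in KO2 and 699 and 827 in WT. All 4 knockout libraries lay below both WT libraries. It fell by 0.46 ± 0.10 on the log2 scale in KO1 (adjusted p = 3.31e-04) and by 0.88 ± 0.10 in KO2 (adjusted p = 3.88e-09). KO1 exceeded KO2 by 0.42 ± 0.10 (adjusted p = 0.00188), but not without KO1 replicate 1 (0.22, adjusted p = 0.193). The RPL5 row held 144 and 164 reads in KO1, 180 and 170 in KO2 and 163 and 161 in WT, with log2 fold changes of 0.01 ± 0.16 and −0.02 ± 0.16 (adjusted p = 0.981 and 0.939). The RPL11 row, its partner, had −0.02 ± 0.16 in KO1 and −0.35 ± 0.16 in KO2 and did not pass in either (adjusted p = 0.959 and 0.116).

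**Figure D2:**
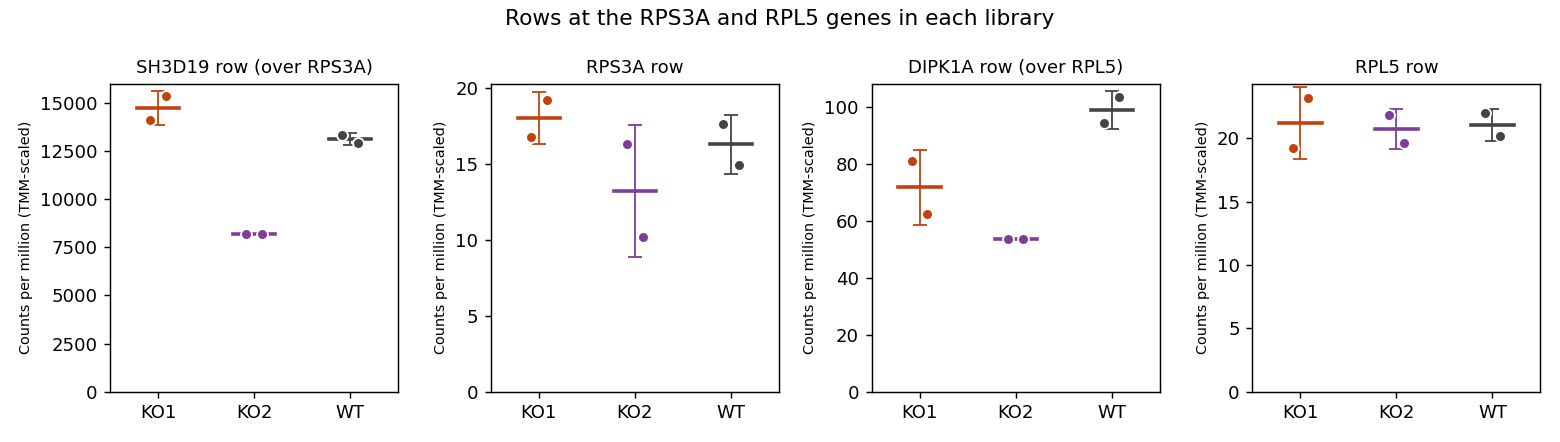
CPM after TMM scaling (vertical axes, each from 0) of the SH3D19, RPS3A, DIPK1A and RPL5 rows in KO1, KO2 and WT; points are libraries, bars the mean and whiskers the SD of 2 libraries. SH3D19 is lowest in KO2 (8201 CPM), DIPK1A is lower in both knockout lines than in WT, and the RPS3A and RPL5 rows overlap between groups.

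Of the small subunit rows 29 of 32 were tested, of which 9 were higher and none lower in KO1, and 4 higher and none lower in KO2 at the adjusted threshold in edgeR, with medians of 0.25 and 0.17. The rows called higher were 31.0% of those tested in KO1, beside 10.4% of all tested rows, and 13.8% in KO2, beside 13.6%, so that the KO2 count was at the background. Lower at an unadjusted p under 0.05 was 1 row in KO1, RPS27L, and 0 in KO2, and DESeq2 and limma-voom called 0 lower in either line. The row with the clearest change was RPS2, a protein at the mRNA entry side of the small subunit, which has no annotated exon on its other strand (chromosome 16, 1962052 to 1964860, minus strand). RPS2 had 178 and 174 CPM in KO1, 141 and 135 CPM in KO2, against 76.3 and 97.3 CPM in WT. Every knockout library lay above both WT libraries. RPS2 rose 2.03-fold in KO1 (log2 1.02 ± 0.08, adjusted p = 5.57e-12) and 1.59-fold in KO2 (0.66 ± 0.08, adjusted p = 7.17e-08). KO1 exceeded KO2 by 0.35 ± 0.08 (adjusted p = 0.00115). These 3 calls held in all alternatives.

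Other small subunit rows called in each line changed less, and their calls ended when single libraries were left out. Such a fit leaves a single library in that group, so a call can end while the change stays nearly the same. RPS19, the gene most often mutated in Diamond-Blackfan anaemia, held 191 and 191 reads in KO1, 227 and 211 in KO2 and 108 and 162 in WT. It was higher by 0.59 ± 0.16 in KO1 and by 0.57 ± 0.16 in KO2 (adjusted p = 0.00674 and 0.00617). Without WT replicate 1 both calls ended (0.37 and 0.35), and without KO2 replicate 1 that in KO2 (0.49). RPS4X, encoded on the X chromosome, held 219 and 203 reads in KO1, 243 and 233 in KO2 and 154 and 163 in WT (0.49 ± 0.14 and 0.45 ± 0.14, adjusted p = 0.0096 and 0.0134). The knockout libraries again lay above WT, yet the RPS4X calls ended without WT replicate 2 (0.48 and 0.44) and by DESeq2 (0.50 and 0.44), and in KO2 also without KO2 replicate 1 (0.39) or WT replicate 1 (0.46). RPS27, a zinc-binding protein, held 68 and 64 reads in KO1, 82 and 67 in KO2 and 46 and 39 in WT (0.71 ± 0.26 and 0.67 ± 0.25, adjusted p = 0.0393 and 0.0412). At these counts the RPS27 calls ended without WT replicate 2 (0.54 and 0.51), without KO1 replicate 1 or 2 in KO1 (0.71 each), without KO2 replicate 1 in KO2 (0.49), and, for both, without a filter (0.72 and 0.66), by DESeq2 (0.72 and 0.66) and after subtracting the median change of the 10 Mb bin around the row, the bin offset (0.69 and 0.53).

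Other small subunit rows were called in KO1 and not in KO2. RPSA, which also serves as a laminin receptor, had 0.59 ± 0.18 in KO1 (adjusted p = 0.0148) and 0.21 ± 0.18 in KO2 (adjusted p = 0.433). RPS13 had 0.53 ± 0.16 and 0.22 ± 0.16 (adjusted p = 0.0137 and 0.355), and RPS14, whose loss is a hallmark of the 5q− syndrome, 0.44 ± 0.15 and 0.17 ± 0.15 (adjusted p = 0.0326 and 0.455). RPS20 had 0.86 ± 0.31 and 0.12 ± 0.32 (adjusted p = 0.0382 and 0.832) on 27 to 50 reads. Each of these 4 KO1 calls ended by DESeq2 and without at least 2 single libraries: RPSA without KO1 replicate 2 (0.49) or WT replicate 1 (0.52), RPS13 without KO1 replicate 1 (0.49) or WT replicate 2 (0.45), RPS14 without KO1 replicate 2 (0.30), WT replicate 1 (0.41) or WT replicate 2 (0.47), and RPS20 without any KO1 or WT library (0.73 to 0.99). The KO1 value minus the KO2 value was not called for any of them in the main test. RPS29, one of the most counted members, held 2118 and 1971 reads in KO1, 1735 and 1951 in KO2 and 1819 and 1801 in WT. It was higher in KO1 (0.25 ± 0.07, adjusted p = 0.00486), not without WT replicate 2 (0.19), while KO2 had −0.11 ± 0.07 (adjusted p = 0.242). RPS28, the row of highest level per kilobase of annotated exon (175 CPM per kb, beside 55.4 for RPS2 and 24.9 for RPS29), had 0.02 ± 0.07 in KO1 and 0.11 ± 0.07 in KO2 (adjusted p = 0.867 and 0.212).

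**Figure D3:**
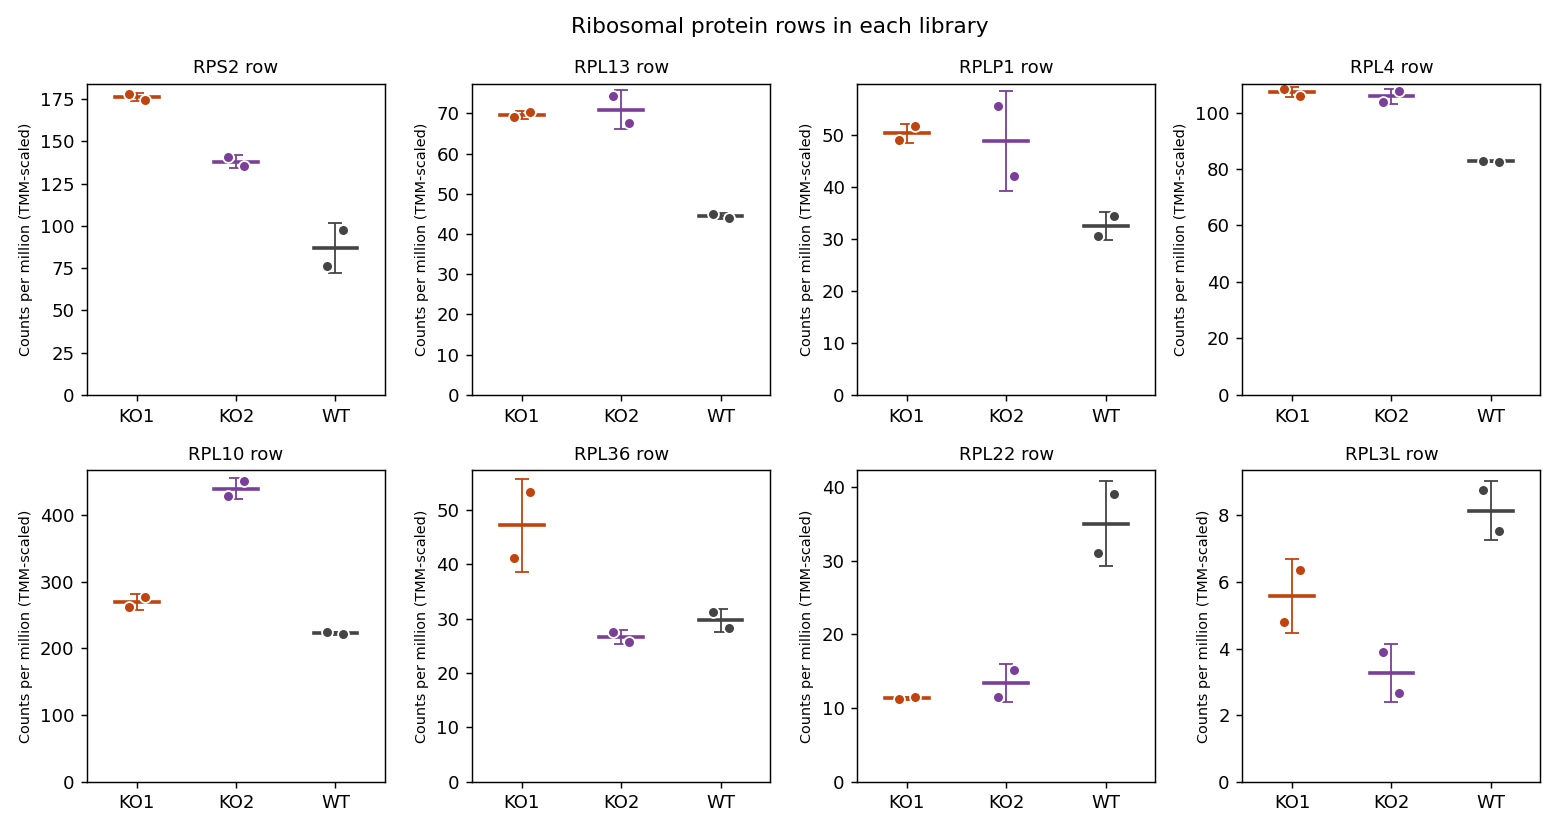
CPM after TMM scaling (vertical axes, each from 0) of 8 ribosomal protein rows in KO1, KO2 and WT; points are libraries, bars the mean and whiskers the SD of 2 libraries. The RPS2, RPL13, RPLP1 and RPL4 rows are higher in every knockout library than in WT, RPL10 is highest in KO2, RPL36 is highest in KO1, and RPL22 and RPL3L are lower in the knockout libraries.

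Of the large subunit rows 47 of 51 were tested, of which 16 were higher and 1 lower in KO1 and 9 higher and 3 lower in KO2, with medians of 0.37 and 0.26. In all, 36.2% were called in KO1, beside 23.6% of all tested rows, and 25.5% in KO2, beside 29.0%. RPL13, a large subunit protein, had 69 and 70.3 CPM in KO1, 74.4 and 67.5 CPM in KO2, against 45.1 and 44.0 CPM in WT. RPL13 rose by 0.65 ± 0.10 in KO1 and 0.67 ± 0.10 in KO2 on the log2 scale (adjusted p = 2.09e-06 and 6.06e-07), 1.56-fold and 1.59-fold, in all alternatives. Its knockout libraries did not overlap WT, and no exon is annotated on its other strand.

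The stalk of the large subunit, which recruits the translation factors that split GTP, consists of RPLP0 with RPLP1 and RPLP2, and all 3 rows were tested. RPLP1 had 49.0 and 51.7 CPM in KO1, 55.7 and 42.1 CPM in KO2, against 30.6 and 34.5 CPM in WT. It was higher by 0.63 ± 0.12 in KO1 and 0.58 ± 0.12 in KO2 (adjusted p = 1.61e-04 and 2.61e-04), and both calls held in all alternatives. RPLP2 had 17.9 and 28.2 CPM in KO1, 22.2 and 23.9 CPM in KO2, against 15.5 and 15.1 CPM in WT, so 1 KO1 library lay close to WT. Its changes were 0.59 ± 0.18 in KO1 and 0.59 ± 0.18 in KO2 (adjusted p = 0.0157 and 0.0104). The KO1 call ended without KO1 replicate 2 (0.22) or WT replicate 2 (0.56), and both ended by DESeq2 (0.60 and 0.58). RPLP0 was higher in KO1 (0.48 ± 0.16, adjusted p = 0.0232), not without KO1 replicate 2 (0.41) or WT replicate 1 (0.30), by DESeq2 (0.49) or with the bin offset (0.21). In KO2 the RPLP0 row had 0.26 ± 0.16 (adjusted p = 0.244).

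RPL4, which lines the exit tunnel, had 108 and 106 CPM in KO1, 104 and 107 CPM in KO2, against 82.8 and 82.6 CPM in WT. RPL4 rose by 0.37 ± 0.08 in KO1 and 0.35 ± 0.08 in KO2 (adjusted p = 4.72e-04 and 6.06e-04). The knockout libraries lay close together and above WT. The median change of the other rows in its 10 Mb bin was 0.16 in KO1 and 0.19 in KO2, and with that offset the KO2 call ended (0.16, adjusted p = 0.15). RPL15 had 58.7 and 60.4 CPM in KO1, 58.7 and 55.2 CPM in KO2, against 44.6 and 44.5 CPM in WT (0.42 ± 0.10 and 0.35 ± 0.10, adjusted p = 0.00163 and 0.00591). Its KO2 call ended without KO2 replicate 1 (0.32) and by DESeq2 (0.34). RPL8 was higher by 0.46 ± 0.13 in KO1 and 0.44 ± 0.13 in KO2 (adjusted p = 0.0102 and 0.0106). Both RPL8 calls ended without WT replicate 1 (0.42 and 0.40) and by DESeq2 (0.46 and 0.43), the KO1 call without KO1 replicate 1 (0.37) and the KO2 call without KO2 replicate 1 (0.35). RPL19 was called at 0.52 ± 0.19 in KO1 and 0.48 ± 0.18 in KO2 (adjusted p = 0.0403 and 0.0499), and with the bin offset it had −0.03 and 0.10. Its calls also ended without WT replicate 1 (0.54 and 0.50), without WT replicate 2 (0.49 and 0.45), without KO1 replicate 1 in KO1 (0.36), without KO2 replicate 1 in KO2 (0.25) and by DESeq2 (0.52 and 0.47). In KO2 the RPL19 call ended as well with the replicate block (0.46, adjusted p = 0.0564), with RLE factors (0.46), without a filter (0.46) and by limma-voom (0.46), in 9 of 15 alternatives in all.

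RPL10, which joins the large subunit in the last step of its assembly in the cytoplasm, differed between the lines. It had 261 and 278 CPM in KO1, 428 and 451 CPM in KO2, against 224 and 221 CPM in WT. No KO2 library overlapped another group. RPL10 was higher by 0.28 ± 0.07 in KO1 (adjusted p = 0.00157) and by 0.98 ± 0.07 in KO2 (adjusted p = 1.23e-14), with −0.71 ± 0.06 for KO1 against KO2 (adjusted p = 1.12e-10). RPL10 lies on the X chromosome (154389955 to 154409168, plus strand), in a 10 Mb bin whose other rows had a median change of 0.00 in KO1 and 0.62 in KO2 over 20 rows. With that offset the KO2 change was 0.36, still called (adjusted p = 7.64e-05), and KO1 against KO2 was −0.08 (adjusted p = 0.441).

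RPL36, a large subunit protein, was called in KO1 in every alternative. It had 41.1 and 53.2 CPM in KO1, 27.5 and 25.6 CPM in KO2, against 31.2 and 28.2 CPM in WT. It rose by 0.67 ± 0.13 in KO1 (adjusted p = 1.44e-04), had −0.16 ± 0.14 in KO2 (adjusted p = 0.421), and KO1 exceeded KO2 by 0.83 ± 0.13 (adjusted p = 6.44e-06).

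Several more large subunit rows were called higher in 1 line, and these calls ended when single libraries were left out. In KO1 these were RPL3 (0.50 ± 0.16, adjusted p = 0.0175), RPL7 (0.55 ± 0.16, adjusted p = 0.00838), RPL7A (0.49 ± 0.17, adjusted p = 0.0296), RPL23A (0.77 ± 0.21, adjusted p = 0.00463) and RPL35 (0.63 ± 0.21, adjusted p = 0.0222). In KO2 these rows had 0.34 for RPL3, 0.29 for RPL7, 0.33 for RPL7A, 0.25 for RPL23A and 0.02 for RPL35, none called. Some of these passed in KO2 under an alternative: RPL3 without KO2 replicate 2 (0.52), with the bin offset (0.53) and with a mean CPM of at least 5 (0.40), RPL7 without KO2 replicate 1 (0.44) or WT replicate 1 (0.54), RPL7A without KO2 replicate 2 (0.58) and RPL35 with the bin offset (0.64). RPL23A passed in KO2 under 0 of 15 alternatives. In the direct test of KO1 against KO2, RPL35 alone of these rows differed, and that call ended in 5 of 15 alternatives. RPL23A differed there with upper-quartile factors (0.57). The difference was 0.52 for RPL23A without WT replicate 1 and 0.51 for RPL7 without KO1 replicate 1. None of the KO1 calls was shown to be particular to that line in every alternative. The KO1 call ended for RPL3 without KO1 replicate 1 (0.40) or WT replicate 2 (0.45), for RPL7 without KO1 replicate 2 (0.26) or WT replicate 2 (0.32), and for RPL7A without any KO1 or WT library (0.43 to 0.54). It ended for RPL23A without KO1 replicate 2 (0.65) and with the bin offset (0.30), and for RPL35 without KO1 replicate 1 (0.49) or WT replicate 1 (0.45). By DESeq2 those of RPL3, RPL7, RPL7A and RPL35 ended, at 0.50, 0.55, 0.49 and 0.64, and with the bin offset that of RPL3 (0.40). RPL10A was called in KO2 (0.76 ± 0.20, adjusted p = 0.00358), not without KO2 replicate 1 (0.56) or WT replicate 1 (0.61), and had 0.54 ± 0.21 in KO1 (adjusted p = 0.055). In KO1 RPL10A passed with upper-quartile factors (0.62), with a mean CPM of at least 5 (0.57), without KO2 replicate 2 (0.54) and with the bin offset (0.64).

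The row that fell most was RPL22, a large subunit protein that also binds structured RNAs. It held 84 and 81 reads in KO1, 95 and 132 in KO2 and 230 and 312 in WT. All knockout libraries lay below WT. RPL22 had 11.2 and 11.5 CPM in KO1, 11.5 and 15.2 CPM in KO2, against 31.0 and 39.1 CPM in WT, 3.1-fold lower in KO1 (log2 −1.63 ± 0.18, adjusted p = 3.40e-09) and 2.62-fold lower in KO2 (−1.39 ± 0.17, adjusted p = 3.17e-08). The other rows of its 10 Mb bin had a median of −0.48 in KO1 and −0.40 in KO2 over 54 rows, and with that offset RPL22 was still called, at −1.15 and −0.99. RNF207, whose exons lie over 243 bases of the RPL22 untranslated region on the other strand, had −0.38 ± 0.15 in KO1 (adjusted p = 0.062) and −0.45 ± 0.15 in KO2 (adjusted p = 0.0186). The RNF207 call in KO2 ended without KO2 replicate 1 (−0.37), without WT replicate 2 (−0.36), by DESeq2 (−0.46) and with the bin offset (−0.06); in KO1 the row passed without KO1 replicate 2 (−0.65) or either KO2 library (−0.38 each). RPL22L1, the paralog of RPL22, held 12 and 14 reads in KO1, 12 and 5 in KO2 and 8 and 6 in WT, with 0.96 ± 0.64 and 0.15 ± 0.68 (adjusted p = 0.314 and 0.908), a difference that these counts could not resolve.

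Rows of paralogs, second genes that encode close relatives of a core protein and are often restricted to some tissues, were little counted. Of 7 paralog rows 5 were tested, none was called in KO1 by edgeR, DESeq2 or limma-voom (1 at an unadjusted p under 0.05, RPS27L) and 1 was lower in KO2, with medians of −0.54 and −0.60. The called row was RPL3L, the form of RPL3 found in heart and skeletal muscle. RPL3L held 36 and 45 reads in KO1, 32 and 23 in KO2 and 65 and 60 in WT, all knockout libraries below WT. It was lower in KO2 by 1.31 ± 0.30 on the log2 scale (log2 fold change −1.31, adjusted p = 6.44e-04), and had −0.54 ± 0.28 in KO1 (adjusted p = 0.171). KO1 against KO2 was 0.77 ± 0.31 and not called (adjusted p = 0.0803). RPS27L, a p53 target, held 12 and 12 reads in KO1, 20 and 20 in KO2 and 32 and 23 in WT (−1.11 ± 0.44 and −0.60 ± 0.41, adjusted p = 0.0639 and 0.304), and passed in KO1 with the bin offset (−1.27, adjusted p = 0.037). RPL26L1 had −0.87 ± 0.53 and −0.75 ± 0.51 (adjusted p = 0.256 and 0.295), and RPL7L1 was not called in either line. RPL10L, found in testis, held 2 reads in 1 KO2 library and 0 elsewhere, and RPL39L 0 to 4 reads. Apart from RPL22 and RPL3L, the lower large subunit row was RPL32 in KO2 (−0.35 ± 0.12, adjusted p = 0.0283), which ended without KO2 replicate 2 (−0.27), without WT replicate 2 (−0.25) and by DESeq2 (−0.36).

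**Figure D4:**
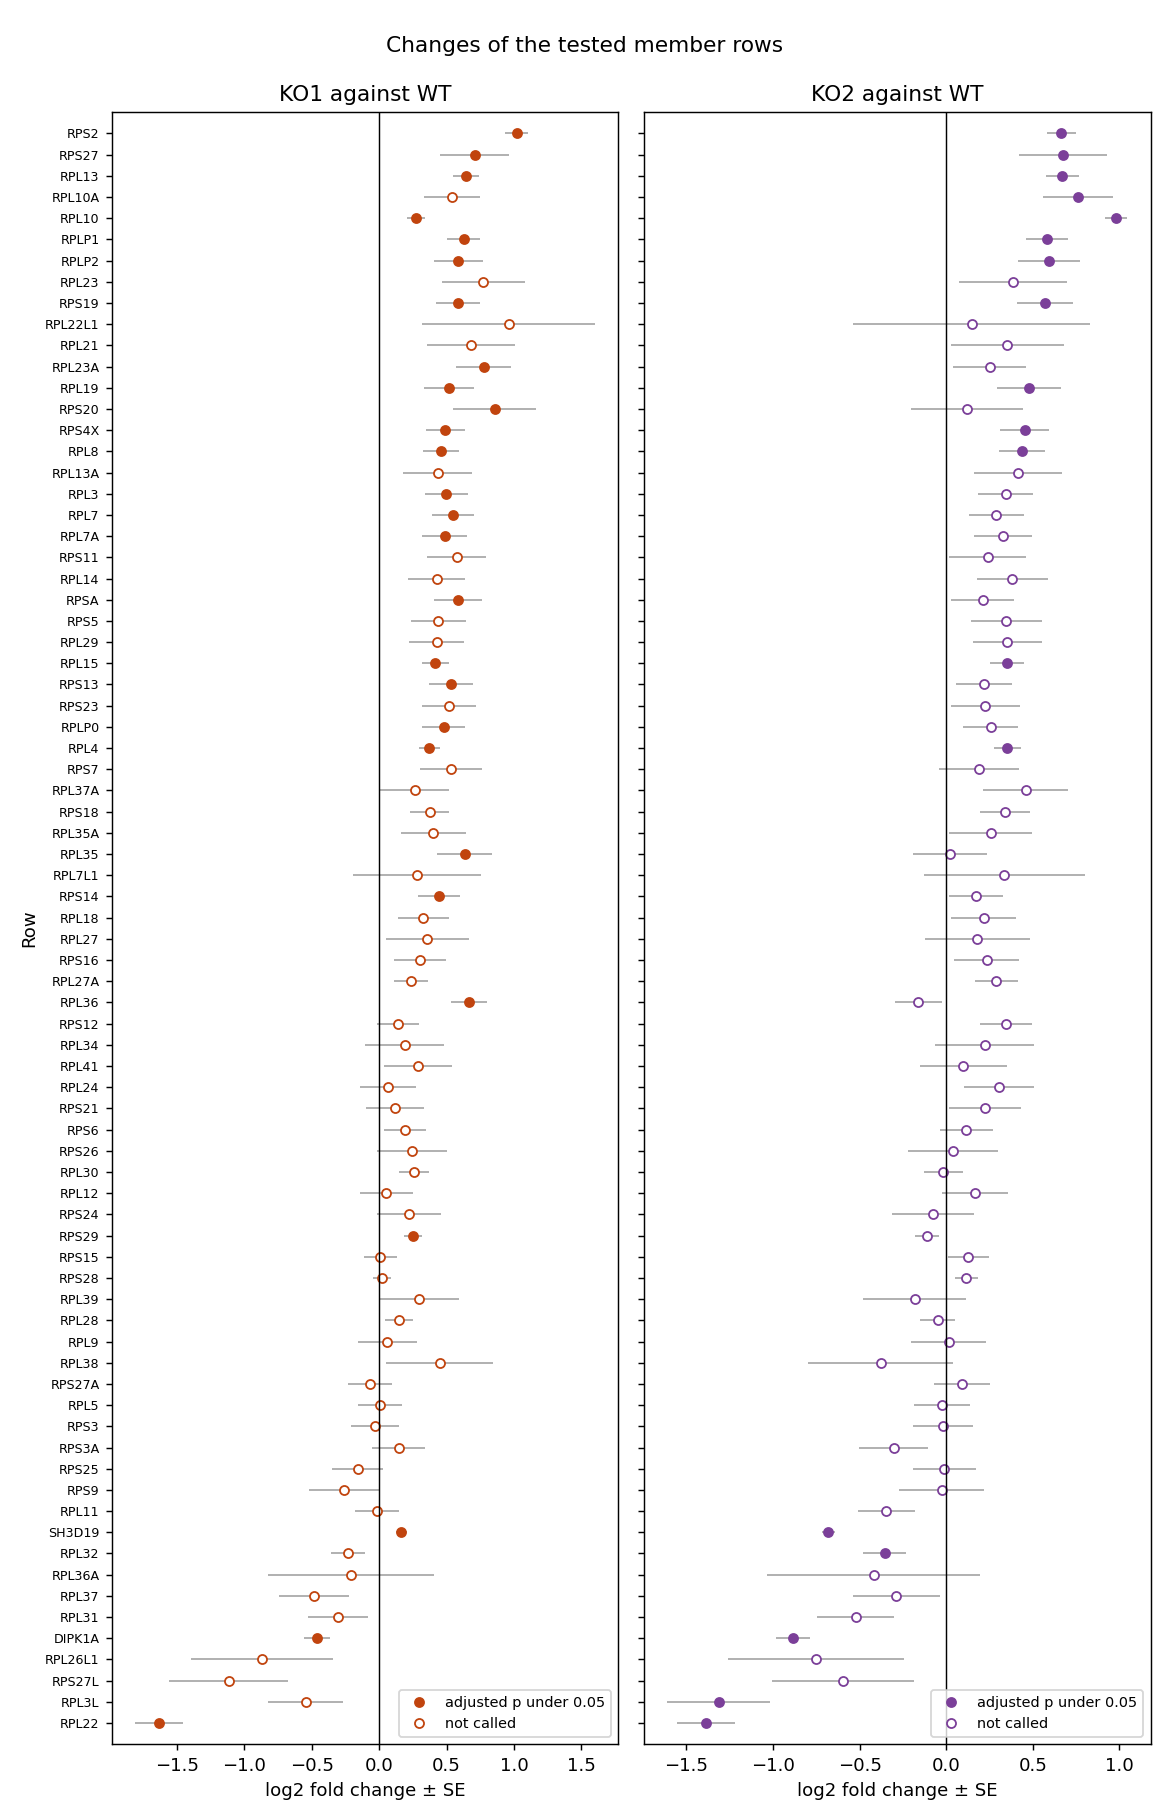
Log2 fold changes with SE of 76 tested member rows in KO1 against WT (left) and KO2 against WT (right), ordered by the mean of both lines; filled points are called at an adjusted p under 0.05 and open points are not. RPS2 is at the top with 1.02 and 0.66, RPL22 at the bottom with −1.63 and −1.39, and SH3D19 lies at 0.17 and −0.68.

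The other 7 members were too low to test. Of these, RPS10 held 0 reads in every library, where a count of 0 allows up to 3 reads by counting error alone, and RPL10L, RPL17, RPL26, RPL39L and RPS15A averaged 0.333 to 3 reads. RPS10 shares 929 same-strand exonic bases with other annotated genes, RPL17 806, RPL26 360 and RPS15A 218. RPL10L and RPL39L share 0, while RPL13A shares 410 and averaged 60.5 reads. Whether such sharing bears on the counts was not tested. Of 17 rows of genes mutated in Diamond-Blackfan anaemia 14 were tested, with 4 higher and none lower in KO1 and 3 higher and none lower in KO2 (medians 0.29 and 0.15), 28.6% and 21.4% of them, beside 23.6% and 29.0% of all tested rows. Lower at an unadjusted p under 0.05 were 0 in KO1 and 2 in KO2, RPL11 and RPL31; DESeq2 called 0 lower in either line, and limma-voom 0 in KO1 and 1 in KO2. Among ribosomal protein rows with no annotated exon on the other strand, 48 were tested, 17 were higher and none lower in KO1 (1 at an unadjusted p under 0.05, none by DESeq2 or limma-voom) and 9 higher and 1 lower in KO2 (medians 0.44 and 0.25), 35.4% and 20.8% called. Among the 24 with at least 100 such bases, 6 were higher and 1 lower in KO1 and 4 higher and 2 lower in KO2 (medians 0.22 and 0.05), 29.2% and 25.0% called. The difference between these classes was not tested.

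SH3D19 and DIPK1A were not the only rows over ribosomal protein genes. At least 100 exonic bases on the other strand were annotated for 24 ribosomal protein genes. ATG10, named for an autophagy enzyme, lies over 374 bases of RPS23, a protein of the decoding centre, and averaged 44184 reads, 337 times the RPS23 row. AC245140.2 over the start of RPL10 averaged 42564 reads, AP003352.1 over RPL30 27700 and LIAS, named for lipoic acid synthase, over RPL9 14136. For RPL9 the ratio to the gene's own row was 178, for RPL30 88.7 and for RPL10 17.3. ATG10, AC245140.2 and LIAS share exonic bases on the other strand with no other gene.

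The changes of these rows were modest and were not the same in both lines. ATG10 held 44669 and 46962 reads in KO1, 42872 and 47108 in KO2 and 41298 and 42196 in WT. It was higher by 0.22 ± 0.05 in KO1 (adjusted p = 5.34e-04), had −0.03 ± 0.05 in KO2 (adjusted p = 0.705), and differed between the lines by 0.24 ± 0.05 (adjusted p = 1.25e-04). The RPS23 row beneath it had 0.52 ± 0.20 and 0.23 ± 0.20, not called (adjusted p = 0.0535 and 0.443). LIAS was higher in KO2 (0.54 ± 0.08, adjusted p = 1.53e-06), not by DESeq2 (0.53, adjusted p = 0.0697). In KO1 the LIAS row had 0.19 ± 0.08 (adjusted p = 0.0894), and it was called in 7 of 14 alternatives, at 0.42 without KO1 replicate 1 and at 0.19 to 0.26 without either KO2 library, without WT replicate 1, without a filter, with upper-quartile factors and over rows of mean CPM 5 or more; without KO1 replicate 2 it was −0.09, not called. The RPL9 row had 0.06 and 0.02, not called. AC010761.1 over RPL23A held 752 and 827 reads in KO1, 517 and 560 in KO2 and 413 and 443 in WT, the KO1 libraries above all others. It rose by 0.97 ± 0.09 in KO1 (adjusted p = 1.25e-10) and had 0.20 ± 0.09 in KO2 (adjusted p = 0.119); the RPL23A row beneath it was the one called in KO1 at 0.77. With the bin offset AC010761.1 was still called in KO1 (0.49), in a bin of 40 rows, itself among them, with a median of 0.47.

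**Figure D5:**
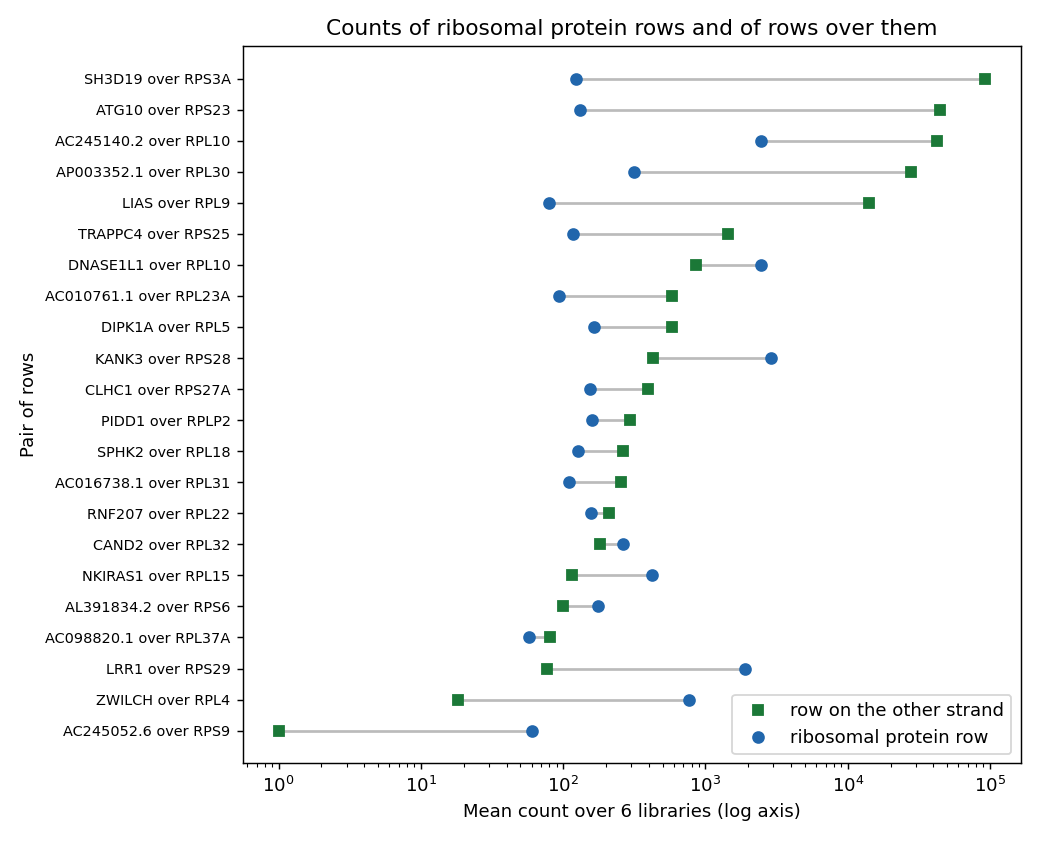
Mean counts over 6 libraries (log axis) of ribosomal protein rows (circles) and of 22 rows with at least 100 exonic bases over them on the other strand (squares), 1 line per pair. SH3D19, ATG10, AC245140.2, AP003352.1 and LIAS hold 14136 to 92491 reads each while the ribosomal protein rows below them hold 79.5 to 2463. In other pairs, among them those of RPS28, RPS29, RPL4 and RPL15, the order is the other way.

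PIDD1, named for a p53-induced death domain protein, lies over 107 bases of RPLP2 and changed far more than that row. PIDD1 held 101 and 115 reads in KO1, 515 and 888 in KO2 and 73 and 71 in WT, with all KO2 libraries above the others. It rose by 3.14 ± 0.18 in KO2 (adjusted p = 1.06e-16) and by 0.66 ± 0.21 in KO1 (adjusted p = 0.0206), where the call ended without KO1 replicate 2 (0.52), without WT replicate 2 (0.59), by DESeq2 (0.67) and by limma-voom (0.66). TRAPPC4 over RPS25 held 622 and 1618 reads in KO1, 1651 and 1791 in KO2 and 1488 and 1477 in WT, and 1 KO1 library stood apart. Its KO1 change was −0.31 ± 0.18 and not called (adjusted p = 0.238), 0.25 and called without KO1 replicate 1, and −1.22 and called without KO1 replicate 2. The TRAPPC4 row was also called lower in KO1 by edgeR without a filter (−0.305, adjusted p = 0.00117). The same held without either KO2 library (−0.31 each) and without WT replicate 2 (−0.37).

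Genes that work beside the ribosome moved with no common direction. Of the 4 further ribosomal proteins and ribosome-bound proteins, among them FAU, RPL36AL and RACK1, 1 was higher in KO1 and none in KO2 by edgeR, DESeq2 or limma-voom (1 at an unadjusted p under 0.05). By edgeR 25.0% of the 4 were called in KO1 and 0.0% in KO2, beside 23.6% and 29.0% of all tested rows. RACK1, a scaffold on the small subunit head, held 906 and 806 reads in KO1, 745 and 776 in KO2 and 632 and 748 in WT (0.39 ± 0.08 in KO1, adjusted p = 2.91e-04, and 0.01 ± 0.08 in KO2, adjusted p = 0.961). Of 32 tested initiation factor rows 6 were higher and 3 lower in KO1 and 7 higher and 2 lower in KO2, 28.1% called in each line, near the 23.6% and 29.0% of all tested rows. EIF5, the GTPase-activating factor of start codon selection, held 187 and 180 reads in KO1, 210 and 226 in KO2 and 97 and 125 in WT. It rose by 0.81 ± 0.16 and 0.84 ± 0.16 (adjusted p = 2.00e-04 and 6.92e-05) in all alternatives. EIF3G, a subunit of the largest initiation factor complex, rose by 0.39 ± 0.10 in KO1 and 0.93 ± 0.10 in KO2 (adjusted p = 0.00287 and 6.29e-10).

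Of 11 tested elongation and termination factor rows 3 were higher and 1 lower in KO1 and 1 was higher in KO2. These were 36.4% and 9.09% of the 11, beside 23.6% and 29.0% of all tested rows. The row called in KO2 was EEF2, the translocase of elongation, which held 593 and 545 reads in KO1, 675 and 660 in KO2 and 392 and 484 in WT. EEF2 rose by 0.46 ± 0.09 in KO1 and 0.48 ± 0.09 in KO2 (adjusted p = 2.22e-04 and 8.59e-05), in all alternatives. Of 47 tested ribosome assembly rows 2 were higher and 4 lower in KO1 and 3 higher and 6 lower in KO2, 12.8% and 19.1% of them, beside 23.6% and 29.0% of all tested rows. TSR1, which matures the small subunit, was lower in KO2 (−0.59 ± 0.08, adjusted p = 3.38e-07) and in KO1 (−0.25 ± 0.08, adjusted p = 0.0215), where the call ended without KO1 replicate 2 (−0.21), WT replicate 1 (−0.29) or WT replicate 2 (−0.21), by DESeq2 (−0.24), with upper-quartile factors (−0.17), without a filter (−0.24) and with the bin offset (−0.15). Of 18 rows of regulators of ribosomal protein mRNAs, such as mTOR pathway and LARP family genes, 2 were higher and 1 lower in KO1 and 2 lower in KO2. These were 16.7% and 11.1% of the 18, beside 23.6% and 29.0% of all tested rows. None of the 18 was higher in KO2 by edgeR, DESeq2 or limma-voom, and 2 were at an unadjusted p under 0.05, RPS6KB2 and MYC.

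Between the knockout lines directly, KO1 against KO2, 7 of the 78 tested members were higher and 1 lower, where 10.1% of all tested rows were higher and 10.3% lower (20.4% in either direction). Among the higher ones were SH3D19, DIPK1A, RPL36, RPS29, RPS2 and RPL35, and the lower one was RPL10. For RPS29 the difference was 0.36 ± 0.07 (adjusted p = 8.60e-05) and for RPL35 0.61 ± 0.20 (adjusted p = 0.0282). The RPL35 call ended without KO1 replicate 1 (0.47), without either KO2 library (0.62 and 0.59), by DESeq2 (0.63) and with the bin offset (0.04). In sum 10.3% of the tested members were called between the lines, a description that was not tested.

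The authors' deposited table set the 4 knockout libraries against WT as 1 group and listed 75 of the 85 members. In it, the authors' deposited table, 8 members had q-values under 0.05: RPL4, RPL13, RPL15, RPLP1, RPS2 and RPS4X were higher, and RPL22 and DIPK1A lower. The gene sizes used for FPKM in the authors' deposited table ran over the members from 18 bases, for RPL10, to 8626, and no FPKM level is given here. FPKM served only to choose some of the rows named, a ranking that rests on these gene sizes.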

How the data were processed

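Total RNA was made into directional libraries, per the labels' protocols; how mRNA was selected is not given in the sources used here. The submitters' processing notes name STAR 2.7.1a, HTSeq 0.6.1p1, Trim Galore and, without a version, limma, with builds hg38 and GRCh38.p6. The authors deposited raw counts per gene symbol, and beside them FPKM values, log2 fold changes, p-values and q-values of the knockouts against WT, per the file headers; rank and score values that the authors deposited there were not used. All 6 count columns mapped to samples.

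Tests on the 59087 rows used the quasi-likelihood method of edgeR 4.0.16 under R 4.3.3 (TMM scaling, filterByExpr, 14184 rows kept, 1 fit of 3 groups, no covariates), with Benjamini-Hochberg adjustment over all tested rows. CPM is per 1000000 of the TMM-scaled library size. Residual degrees of freedom were 3 and the biological coefficient of variation was 7.57%. The median prior degrees of freedom were 31.92, so the spread used for a row was drawn largely from all rows and less from its own libraries. The script was tested on simulated data. Both lines were compared with the same WT libraries. With 2 libraries a group the replicates' counts differed by more than sampling noise, chi-square values being 2.19 to 3.62 times their degrees of freedom.

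Rows were placed by symbol on GRCh38 with GENCODE v29 (56242 directly, 324 through a current symbol; 172 were shared by several genes, 2349 had no place). Exons of all transcripts were merged. Exon sequences are from GENCODE v29 transcripts, start windows from RefSeq promoters. A 10 Mb bin offset was the median log2 fold change of at least 15 other rows of mean count 50 or more; 57 members had one. Alternatives were DESeq2 1.42.0, limma-voom (limma 3.58.1), RLE or upper-quartile factors, other filters, compared libraries only, the bin offset, the replicate number as a block and leaving out each library. Leaving out a library left a single one in its group, so a call that ended there may reflect fewer libraries rather than a smaller change.

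Members and gene lists were chosen with earlier results of these data known. The rule for naming rows took SH3D19, DIPK1A, RPS3A, RPL5, RPSA, the stalk, the paralogs and their parents, the 10 members highest by FPKM and 5 by count, members called in both lines, the 5 of smallest p in each contrast, up to 4 rows per list called in both lines, and rows over at least 100 bases of a member. The text does not give all of these. Left out are, among others, RPS27A, KANK3, CLHC1, ZWILCH, AC016738.1 and AC098820.1, called in neither line. NKIRAS1 (0.51) and AL391834.2 (−0.66), also left out, were called in KO1, calls that ended in 9 and 3 of 14 alternatives. All other members called were named after their values were seen, as were RPL11, RPS23, RPL9 and RACK1. Some rows are counted but not reported here by name.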

Additional observations from a re-analysis of the deposited data

Results flagged for a closer look

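A direct test of KO1 against KO2 (edgeR, adjusted p under 0.05) found a difference between the lines for 8 member rows, of which 7 are given. These were 10.3% of the tested members, beside 20.4% of all tested rows. The log2 differences were 0.85 for SH3D19, 0.42 for DIPK1A, 0.83 for RPL36, 0.36 for RPS29, 0.35 for RPS2, 0.61 for RPL35 and −0.71 for RPL10.

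The same test found a difference for 11 rows that lie over ribosomal protein genes on the other strand, of which 10 are given. It was 0.77 for AC010761.1 over RPL23A, 0.77 for CAND2 over RPL32, 0.89 for LRR1 over RPS29, 0.55 for SPHK2 over RPL18, 0.24 for ATG10 over RPS23 and 0.18 for AP003352.1 over RPL30. It was −0.17 for AC245140.2 and −0.76 for DNASE1L1, both over RPL10, −0.35 for LIAS over RPL9 and −2.48 for PIDD1 over RPLP2. Without KO2 replicate 1 the differences of LRR1 (0.69) and SPHK2 (0.32) were no longer called. That of AP003352.1 was not called without KO2 replicate 1 (0.14) or with the bin offset (0.13), that of AC245140.2 not without KO2 replicate 2 (−0.13) or with upper-quartile factors (−0.13), that of LIAS not by DESeq2 (−0.33) and that of DNASE1L1 not with the bin offset (−0.14).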

How the results depend on the processing

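Members called in KO1 against WT numbered 28, 14 by DESeq2, and 17 to 32 when single libraries were left out. In KO2 against WT there were 18, 11 by DESeq2, and 14 to 22 with single libraries left out. For the mean of both lines there were 26, 16 by DESeq2, and 15 to 30 with single libraries left out. KO1 against KO2 gave 8, and 6 to 9 with single libraries left out. With the replicate block the counts were 28, 18, 23 and 8; replicate numbers did not pair the libraries (correlations of deviations −0.0206 to −0.0286), so the block is given as a check only. The share of counts in members was 1.69% in KO1, 1.12% in KO2 and 1.5% in WT. Without SH3D19 and DIPK1A it was 0.254%, 0.267% and 0.209%, and with TMM effective sizes 1.74%, 1.08% and 1.54%.

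The bin offset turned the direction of AC245140.2 in KO2 against WT (−0.41) and KO1 against KO2 (0.45), DNASE1L1 in KO2 (−0.42), FTSJ3, a ribosome assembly row, in KO1 (0.052), KO2 (0.22) and KO1 against KO2 (−0.17), and RPL19 in KO1 (−0.026). Over single libraries left out, TRAPPC4 in KO1 ran from −1.22 to 0.25. The cause was not tested. The middle member averaged 119 reads, and at that depth changes of the size of its SE could not be resolved.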
